A study of Mus musculus with 32 samples.

Results

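The Notch receptors Notch1, Notch2, Notch3 and Notch4, their ligands Dll1, Dll3, Dll4, Jag1 and Jag2, and Rbpj, the DNA-binding protein on which Notch signals converge, were followed in the RNA-seq data of mouse embryonic stem cells (mESCs). These 10 genes were taken by symbol from the 24028 symbols of the deposited expression tables, and each symbol was listed in both tables. The study examined DNA methylation valleys (DMVs), long stretches of DNA with little methylation that often hold developmental genes, and their relation to Polycomb repressive complex 2 (PRC2), which trimethylates lysine 27 of histone H3 (H3K27me3). EED is a PRC2 subunit that binds this mark. RNA was measured in 1 library of WT mESCs and 1 library of Eed-/- mESCs, both given as strain TT2 and grown in serum and LIF on gelatin, out of 32 samples of the series. The sources used here do not say whether the Eed-/- line is 1 clone or how its Eed alleles were changed, and they name a different line for Eed-/- samples of other assays.

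Notch signalling passes between neighbouring cells. A ligand of the Delta or Jagged type on one cell pulls on a Notch receptor of the next, ADAM10 and then gamma-secretase cut the receptor, and the freed intracellular domain enters the nucleus, where it joins RBPJ and Mastermind coactivators to turn on genes of the Hes and Hey families. Without that domain, RBPJ binds corepressors. In the early mouse embryo the pathway is known for its part in neural fate choice, somite formation and blood vessel growth, and mESCs can self-renew without it.

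Levels were measured as FPKM, the number of fragments divided by transcript length and by the size of the library, a unit that can be compared between genes. The steps between low values put the depth near 7230000 fragments for WT and 6460000 for the library labelled Eed-/-. With 1 library per genotype there was no replicate check and no test. Each value therefore carries a 95% exact counting interval, which leaves out the spread between cultures, and each ratio of deposited FPKM an interval of the same kind. Changes are differences in log2(quantile-normalized FPKM + 1), the library labelled Eed-/- minus WT, and a change of 1 on this scale is called 2-fold. Where values of both libraries are given as a pair, WT comes first. In bulk RNA, fewer cells that express a gene and less RNA per cell cannot be told apart.

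The Eed transcript itself, on chromosome 7 of mm9 from 97103166 to 97129493, had 63 FPKM in WT against 70.9 in the other library. Its ratio was 1.13 (95% interval 1.02 to 1.24), so the RNA of the targeted gene was not lower, and the genotype is given throughout as it is labelled, Eed-/-. RNA does not measure the protein, and the study tested for the loss of EED through H3K27me3, by western blot and ChIP-seq, which were not analysed here. All 8 mESC markers passed the filter in these cells, with a summed FPKM of 1430 in WT against 1610 in the library labelled Eed-/-. Of these, 1, Zfp42, was at least 2-fold higher in the latter. The changes ran from -0.38 to 1.3, 5 above 0 and 3 below. As deposited, only Zfp42, Nanog and Dppa5a were higher and the rest were lower. The ratio intervals of Utf1 (0.581 to 0.7), Sox2 (0.76 to 0.846) and Tdgf1 (0.76 to 0.887) lay below 1.

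Of the 10 genes, 9 passed the filter of a mean normalized FPKM of at least 0.1, and Dll4 did not. In the library labelled Eed-/-, Notch4 and Rbpj were higher by at least 2-fold, Jag2 was at least 2-fold lower, and the other 6 lay within 2-fold. Among all 14835 genes that passed, 3.80% were at least 2-fold higher and 3.98% at least 2-fold lower, 7.78% in either direction. In numbers, 564 genes were higher and 590 lower after quantile normalization, against 455 and 801 with the FPKM as deposited. The changes of the 9 genes ran from -1.59 to 1.42 with a median of -0.06, 4 above 0 and 5 below, and the median over all genes that passed was 0.01. The direction was thus mixed within each role that has several genes, with receptors and ligands on both sides of 0.

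**Figure D1:**
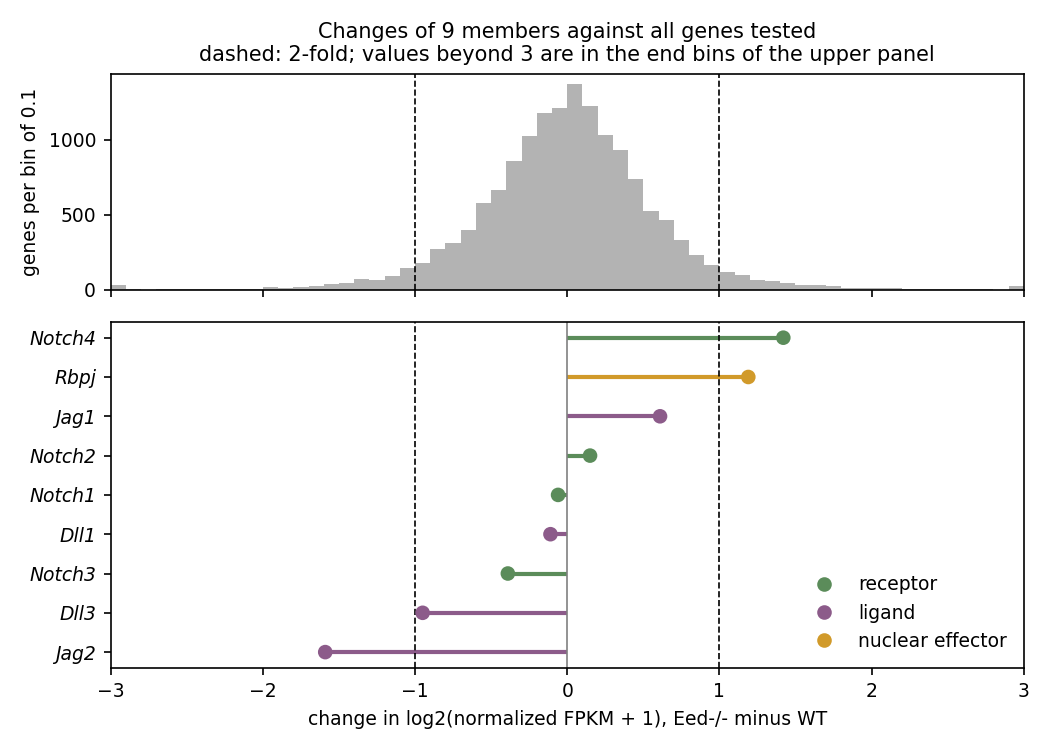
Change in log2(normalized FPKM + 1), the library labelled Eed-/- minus WT, on the horizontal axis; the upper panel counts all 14835 genes that passed the filter in bins of 0.1, and the lower panel gives 1 point per gene for the 9 that passed, coloured by role. Notch4 at 1.42 and Rbpj at 1.19 lie beyond the dashed 2-fold line on the right, Jag2 at -1.59 beyond the one on the left, and Dll3 at -0.95 just inside it.

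The promoters of 5 of these genes are shown because the study concerns methylation of CpG dinucleotides. It found the methylation gained in DMVs of Eed-/- cells only outside CpG islands, the stretches dense in CpG. These genes span the changes seen: the 3 past 2-fold, the next largest change (Dll3) and the change nearest 0 (Notch1). Each window holds 250 bases before and 50 after a transcription start of the RefSeq table (GRCm38.p6), and was placed on NCBIM37, the assembly also called mm9, by an exact and single match. Capitals mark CpG dinucleotides, the sites of DNA methylation, except for Rbpj, where they mark TGGGAA on either strand, the core that RBPJ itself binds.
Jag2 (chr12:114167657-114167956, minus strand): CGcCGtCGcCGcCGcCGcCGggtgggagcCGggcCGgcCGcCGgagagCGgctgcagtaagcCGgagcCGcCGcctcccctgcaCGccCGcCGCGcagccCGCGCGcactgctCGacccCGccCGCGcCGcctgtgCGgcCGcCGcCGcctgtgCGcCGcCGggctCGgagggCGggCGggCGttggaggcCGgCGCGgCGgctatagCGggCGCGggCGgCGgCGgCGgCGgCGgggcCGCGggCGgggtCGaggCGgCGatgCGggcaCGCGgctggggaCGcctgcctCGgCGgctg
Notch4 (chr17:34700990-34701289, plus strand): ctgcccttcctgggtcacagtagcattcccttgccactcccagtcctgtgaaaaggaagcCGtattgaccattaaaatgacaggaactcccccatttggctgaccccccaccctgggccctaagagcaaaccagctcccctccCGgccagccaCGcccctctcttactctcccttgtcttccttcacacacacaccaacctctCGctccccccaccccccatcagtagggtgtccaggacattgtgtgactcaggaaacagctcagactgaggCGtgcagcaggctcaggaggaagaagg
Rbpj (chr5:53981335-53981634, plus strand): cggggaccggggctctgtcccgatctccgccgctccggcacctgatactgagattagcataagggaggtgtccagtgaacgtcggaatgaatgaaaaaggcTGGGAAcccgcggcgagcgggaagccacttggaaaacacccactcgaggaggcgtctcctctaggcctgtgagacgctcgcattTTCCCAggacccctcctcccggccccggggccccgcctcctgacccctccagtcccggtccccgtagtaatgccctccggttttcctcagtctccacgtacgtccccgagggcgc
Dll3 (chr7:29086755-29087054, minus strand): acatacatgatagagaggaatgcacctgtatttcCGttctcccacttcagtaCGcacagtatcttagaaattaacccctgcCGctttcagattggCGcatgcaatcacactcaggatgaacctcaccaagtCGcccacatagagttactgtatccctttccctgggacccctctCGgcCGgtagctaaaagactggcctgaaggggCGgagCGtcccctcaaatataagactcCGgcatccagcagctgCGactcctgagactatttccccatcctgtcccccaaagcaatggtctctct
Notch1 (chr2:26359293-26359592, minus strand): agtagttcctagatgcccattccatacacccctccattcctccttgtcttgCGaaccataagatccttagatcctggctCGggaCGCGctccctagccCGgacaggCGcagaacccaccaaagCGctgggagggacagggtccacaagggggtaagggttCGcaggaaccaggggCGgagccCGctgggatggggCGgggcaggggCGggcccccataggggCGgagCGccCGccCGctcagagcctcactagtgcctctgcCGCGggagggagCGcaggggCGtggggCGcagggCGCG

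The 2 genes at the extremes of change also had the most and the fewest CpG dinucleotides of the 10 windows. The Jag2 window held 63 CpG in 300 bases, a number reached by 0.0259% of the 27025 genes with a window, and 86.0% of its bases were G or C. The Notch4 window held 5, and 43.6% of all genes had 5 or fewer. Between them, by first listed window, lay Notch2 with 41, Rbpj with 26, Notch3 with 25, Dll1 with 24, Notch1 with 23, Jag1 with 22, Dll4 with 17 and Dll3 with 11. Over all genes the median was 7 and the upper quartile 21. The second windows of Rbpj and Dll1 held 28 and 15. Genes with changes of either sign had similar numbers, since Rbpj, which was higher in the library labelled Eed-/-, and Notch1 and Notch3, whose changes were below 0, all had between 23 and 26.

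**Figure D2:**
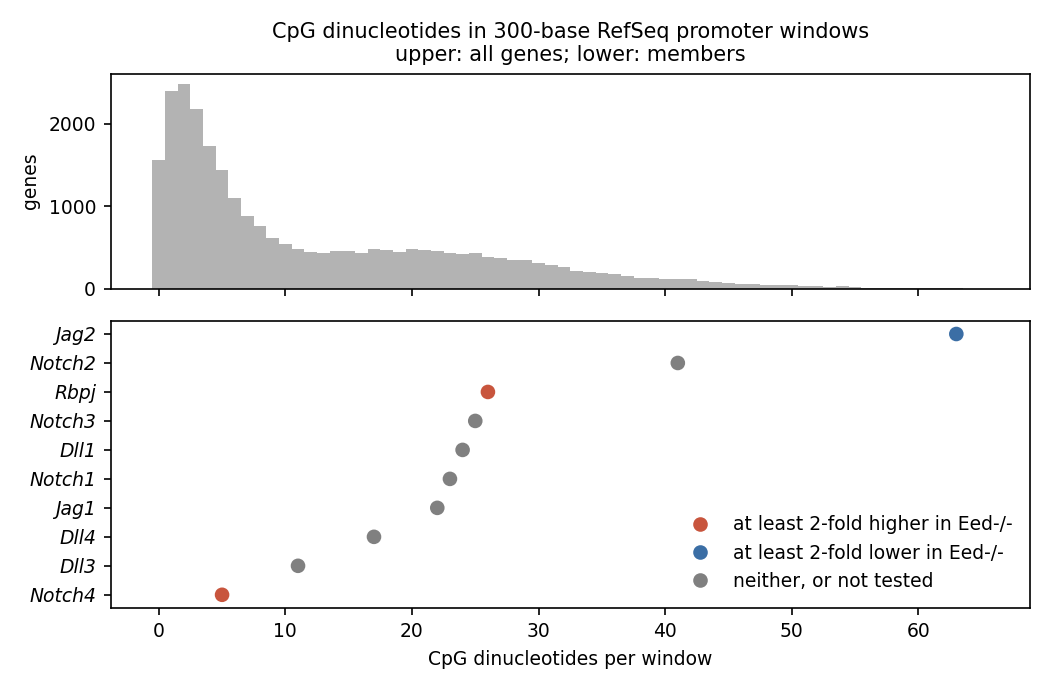
Number of CpG dinucleotides in the 300-base RefSeq promoter window on the horizontal axis; the upper panel counts all genes with a window and the lower panel has 1 point for each of the 10 genes, coloured by whether the gene passed 2-fold. Jag2 lies at 63, at the far right of the distribution, and Notch4 at 5, within its main peak at the left.

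Among the 10 genes, only Rbpj had TGGGAA in its first listed window, at position 102 on the plus strand and at position 186 on the minus strand, counted from the 5′ end of the window. The second window of Rbpj overlaps the first and holds the minus-strand match again, and the second window of Dll1 held none. TGGGAA occurred on either strand in the windows of 25.5% of all genes. The longer GTGGGAA, which contains TGGGAA, occurred in 6.39% of genes and in none of these 10. The RefSeq starts used for Rbpj and Notch1 lie 34567 and 12841 bases downstream of the start of the GENCODE vM1 gene, so other starts of these genes were not covered by the windows. The first starts listed for Dll1 and Dll3 lie 1049 and 453 bases downstream of it. Only for Dll1 does a second window lie at the gene start, and that is the one with 15 CpG.

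Among the receptors, Notch4, a receptor best known from the endothelium of blood vessels, was the lowest of the 4 receptors in WT and the second highest in the library labelled Eed-/-. It is a gene of chromosome 17, from 34701213 to 34725448 (plus strand; all positions are in mm9). Its FPKM was 0.884 (0.635 to 1.2) in WT against 3.84 (3.26 to 4.48) in the library labelled Eed-/-, from about 41 and 159 fragments. The change was 1.42, higher than that of 98.6% of genes, and the ratio of FPKM was 4.34 (3.06 to 6.28). On scales that compress low values less, with pseudocounts of 0.1 and 0.01, the change was 2.09 and 2.2. The 7 endothelial markers summed to an FPKM of 4.14 in WT against 6.31 in the library labelled Eed-/-. Of the 4 that passed the filter 1 was at least 2-fold higher, Kdr with 0.158 and 1.59, a gene singled out after its values were seen. Cdh5 was listed at 0 in WT and at 0.122 in the other library, and Emcn at 0 in both, while Tek stood at 3.09 and 3.02, Sox18 at 0.767 and 1.29 and Erg at 0.0472 and 0.205. All 4 that passed had changes above 0, that of Tek (0.06) only after normalization. The ratio intervals of Tek (0.723 to 1.31), Sox18 (0.633 to 4.75) and Erg (0.429 to 213) included 1. The part of these markers in the Notch4 values was not tested.

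Notch2 had the highest level of any receptor in both libraries and hardly differed between them. Its FPKM was 5.17 (4.67 to 5.71) in WT against 5.22 (4.69 to 5.80) in the library labelled Eed-/-, a ratio of 1.01 with an interval from 0.872 to 1.17. The gene spans chromosome 3 from 97817461 to 97954290 (plus strand), and its change of 0.15 was higher than that of 62.3% of genes. Notch1, the receptor required for T cell fate and for early vascular development, was likewise close to even. It lies on chromosome 2 from 26313423 to 26372183 (minus strand), with an FPKM of 2.83 (2.44 to 3.26) in WT against 2.51 (2.13 to 2.95) in the library labelled Eed-/-. Its ratio of 0.889 had an interval from 0.713 to 1.11, which includes 1, and its change was -0.06.

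Notch3, a receptor of vascular smooth muscle and pericytes, was lower in the library labelled Eed-/-, though within 2-fold. It lies on chromosome 17 from 32257765 to 32303825 (minus strand). Its FPKM was 2.34 (1.96 to 2.77) in WT against 1.48 (1.16 to 1.85) in the library labelled Eed-/-, with a change of -0.39 and a ratio of 0.632 (0.470 to 0.845). The 6 mural cell markers, of which 5 passed the filter and none passed 2-fold, summed to 2.00 in WT against 0.843 in the library labelled Eed-/-, with 2 changes above 0 and 3 below. Acta2, at 1.1 and 0.0648 from about 13 and 1 fragments, held most of that difference. Its change was -0.97, but WT was 17 times as high (2.55 to 721) on the FPKM scale. Cspg4 (0.264 and 0.0591) was also lower, with a ratio of 0.224 (0.0415 to 0.791), as was Pdgfrb (0.424 and 0.296), with an interval that included 1. Tbx2 (0.123 and 0.183) and Myh11 (0.0864 and 0.145) had changes of 0.06 each. They rested on at most about 6 fragments per library, and their ratio intervals (0.253 to 10.2 and 0.398 to 8.09) included 1. Rgs5 was listed at 0 in WT, and the part of these markers in the Notch3 values was not tested.

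The receptor pool as a whole differed less than its makeup. The 4 receptors summed to an FPKM of 11.2 in WT against 13.1 in the library labelled Eed-/-. Notch4 made up 7.88% of that sum in WT against 29.4% in the library labelled Eed-/-, Notch3 20.8% and 11.3%, Notch1 25.2% and 19.3%, and Notch2 46.1% and 40%. Exons of antisense lincRNAs overlap those of Notch1 by 1068 and 414 bases and those of Notch3 by 488. The libraries keep strand, but whether the counting used it is not given in the sources used here.

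**Figure D3:**
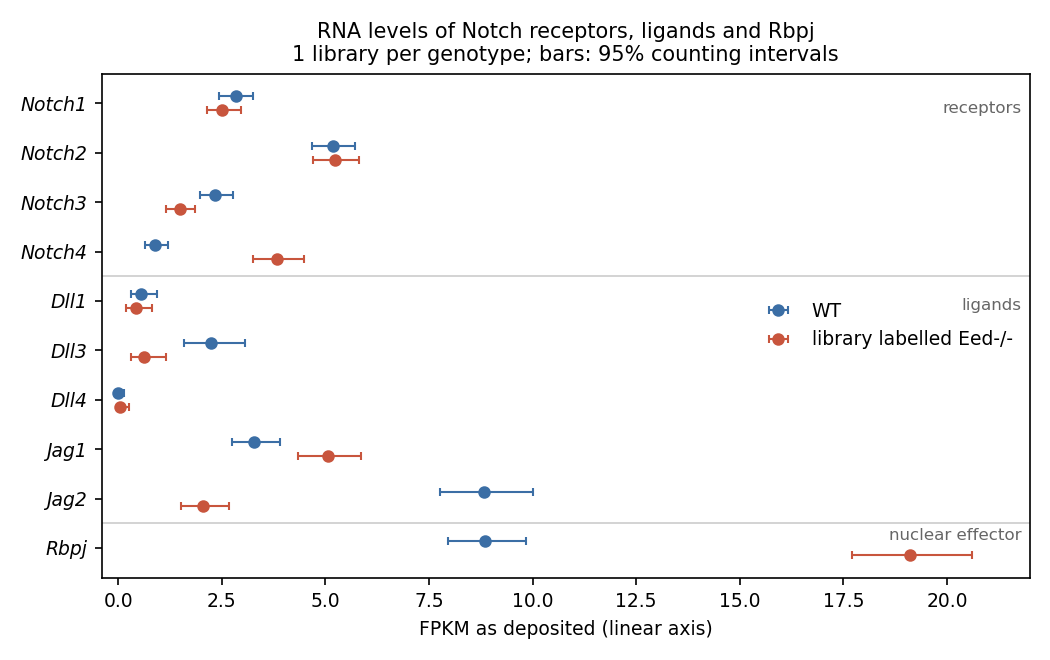
FPKM as deposited on a linear axis for each of the 10 genes in WT (blue) and in the library labelled Eed-/- (red), 1 library per genotype; bars are 95% exact counting intervals and leave out the spread between cultures. The intervals of the libraries lie apart for Notch3, Notch4, Dll3, Jag1, Jag2 and Rbpj. The share of all genes whose intervals lie apart was not counted, so nothing particular to this set can be read from that. Rbpj in the library labelled Eed-/- stands above every other value, at 19.1.

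Among the ligands, Jag2, a Jagged ligand with known roles in limb and thymus development, had the lowest change of the set. It lies on chromosome 12 from 114146801 to 114167706 (minus strand). The FPKM was 8.83 (7.76 to 10.0) in WT against 2.04 (1.52 to 2.68) in the library labelled Eed-/-, from about 247 and 51 fragments. Its change was -1.59, and only 0.903% of genes had a lower one. WT was 4.33 times as high as the library labelled Eed-/-, with an interval from 3.19 to 5.97.

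Jag1, the other Jagged ligand, mutated in Alagille syndrome, went the opposite way. On chromosome 2 from 136907192 to 136942380 (minus strand), it had an FPKM of 3.28 (2.74 to 3.90) in WT against 5.05 (4.33 to 5.85) in the library labelled Eed-/-. The ratio was 1.54 (1.22 to 1.94) and the change 0.61, within 2-fold. In WT Jag2 stood above Jag1 with separate intervals, and in the library labelled Eed-/- Jag1 stood above Jag2, again with separate intervals. The difference between the changes of these ligands has no replicate check.

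Dll1 and Dll4 were the lowest of the set in both libraries, while Dll3 lay above Notch4 in WT. Dll3, which acts inside the cell in somite formation and does not activate Notch on neighbouring cells, lies on chromosome 7 from 29076673 to 29087257 (minus strand). Its FPKM was 2.23 (1.59 to 3.05) in WT against 0.625 (0.300 to 1.15) in the library labelled Eed-/-, from about 39 and 10 fragments. The change of -0.95 was just inside 2-fold, only 4.54% of genes had a lower one, and WT was 3.57 times as high (1.75 to 8.02) on the FPKM scale. With a pseudocount of 0.1 or 0.01, Dll3 passed 2-fold as well. The 6 markers of presomitic and early mesoderm, the tissue in which Dll1 and Dll3 are best known, summed to 2.37 in WT against 1.5 in the library labelled Eed-/-. Of them 5 passed the filter, 2 with changes above 0 and 3 below, and none was past 2-fold. T (0.296 and 0.581) and Tbx6 (0.0899 and 0.202) were higher, and Mesp1, Mesp2 and Mixl1 lower, on at most about 9 fragments per library. The ratio intervals of T, Mesp1, Mesp2 and Mixl1 included 1, and Msgn1 was listed at 0 in both. The part of these markers in the Dll3 values was not tested.

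Dll1, the main Delta ligand of the early embryo, lies on chromosome 17 from 15504318 to 15513836 (minus strand). Its FPKM of 0.554 (0.303 to 0.929) in WT against 0.429 (0.196 to 0.815) in the library labelled Eed-/- rested on about 14 and 9 fragments. The ratio of 0.775 had an interval from 0.296 to 1.92, so a 2-fold lower level could not be told from an even one at this depth. Dll4, the ligand of sprouting endothelium, on chromosome 2 from 119151520 to 119161698 (plus strand), was listed at 0 in WT and at 0.0474, about 1 fragment, in the library labelled Eed-/-. A count of 3 fragments corresponds to an FPKM of 0.116 in WT against 0.130 in the library labelled Eed-/-, so both values lay under that limit and no ratio is given. Antisense lincRNA exons overlap Dll1 by 867 bases and Dll4 by 214.

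Summed over the 5 ligands, the FPKM was 14.9 in WT against 8.19 in the library labelled Eed-/-. Jag2 made up 59.3% of the ligand sum in WT against 24.9% in the library labelled Eed-/-, and Jag1 22.1% and 61.6%. Dll3 held 15.0% and 7.63%, and Dll1 3.72% and 5.24%. Ligand RNA was thus mostly Jagged in both libraries, with Jag2 leading in the first and Jag1 in the second.

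**Figure D4:**
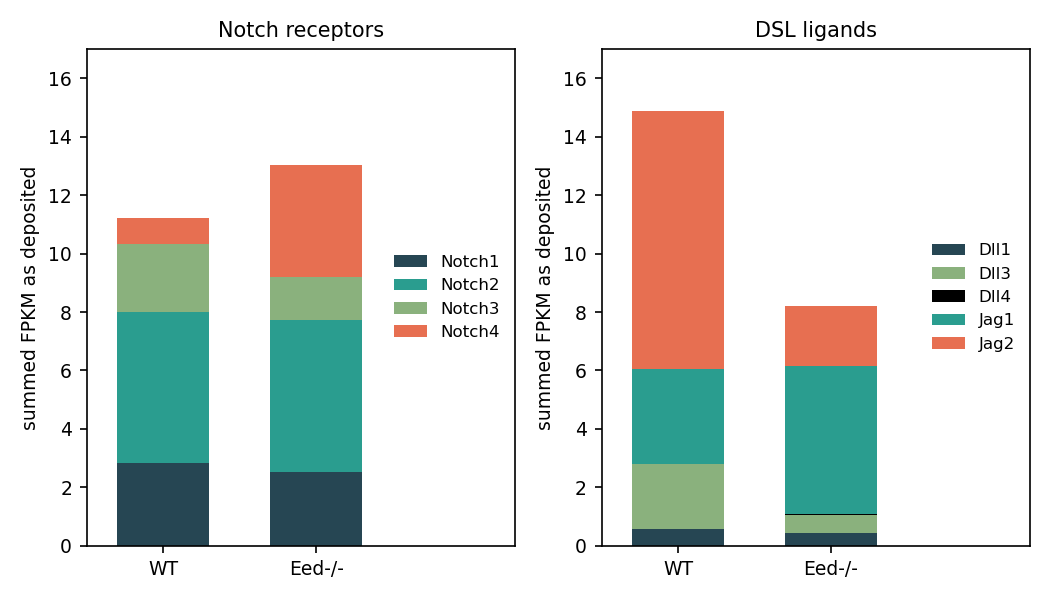
Summed FPKM as deposited, on a linear axis from 0, of the 4 Notch receptors (left) and the 5 ligands (right), 1 bar for WT and 1 for the library labelled Eed-/-, 1 library each, with no error shown; segments are single genes. The receptor sum is 11.2 and 13.1 with a larger Notch4 segment in the second bar, and the ligand sum is 14.9 and 8.19 with a smaller Jag2 and a larger Jag1 segment.

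Rbpj had the highest level of the set in both libraries, level with Jag2 in WT and alone at the top in the library labelled Eed-/-. It lies on chromosome 5 from 53947018 to 54048684 (plus strand). The FPKM was 8.86 (7.95 to 9.85) in WT against 19.1 (17.7 to 20.6) in the library labelled Eed-/-, from about 343 and 661 fragments. The change was 1.19, higher than that of 97.6% of genes, and the ratio 2.16 (1.89 to 2.46). The value is uncertain in one respect. A stretch of chromosome 6 from 46476933 to 46480794 matches 69.7% of the longest coding Rbpj transcript without introns at 99.5% identity, and 2 stretches of chromosome 4 match 79.7% and 79.6% of it less closely, at 90% and 91% identity outside gaps. How the counting shared reads between these copies is not given in the sources used here. No other gene of the set had a near-identical copy under the criterion used, at least 80% of the transcript at 95% identity, which Rbpj itself did not meet either.

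Ordered by level, the genes fell into steps. In WT, Rbpj and Jag2 (8.86 and 8.83) overlapped in their intervals and lay above Notch2 (5.17), which lay above Jag1, Notch1, Notch3 and Dll3, each overlapping its neighbour from 3.28 to 2.23. Notch4 and Dll1 followed with overlapping intervals, and Dll4 was last. In the library labelled Eed-/-, Rbpj was followed by Notch2, Jag1 and Notch4, each overlapping its neighbour from 5.22 to 3.84. Notch1, Jag2 and Notch3 came next, from 2.51 to 1.48, and then Dll3, Dll1 and Dll4, again each overlapping the next.

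Of the 10 genes, Notch1, Dll1, Dll4, Jag1 and Rbpj are on the study's list of genes in mESC DMVs, and Notch2, Notch3, Notch4, Dll3 and Jag2 are not. Both classes held genes above and below 0. Of the 3 past 2-fold, Rbpj is on the list, with a change of 1.19, and Notch4 and Jag2 are not, with 1.42 and -1.59. Of the DMV genes, Jag1 and Rbpj stood at changes of 0.61 and 1.19, and Dll4 was at or near 0 in both libraries. Notch1 and Dll1 stood at -0.06 and -0.11, with ratio intervals (0.713 to 1.11 and 0.296 to 1.92) that included 1. The share of all genes on the DMV list was not counted, and a link between the list and the changes was not tested.

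The other genes of the pathway were described with 60 genes in 8 lists, of which 53 passed the filter. Adam10 was higher by at least 2-fold in the library labelled Eed-/-, and Egfl7, Lfng and Dtx3 were lower by at least 2-fold. The remaining 49 lay within 2-fold, and the median change over the lists was 0.01, the same as over all genes. Thus 1 of 53 was higher and 3 of 53 were lower, beside 3.80% and 3.98% of all genes that passed.

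**Figure D5:**
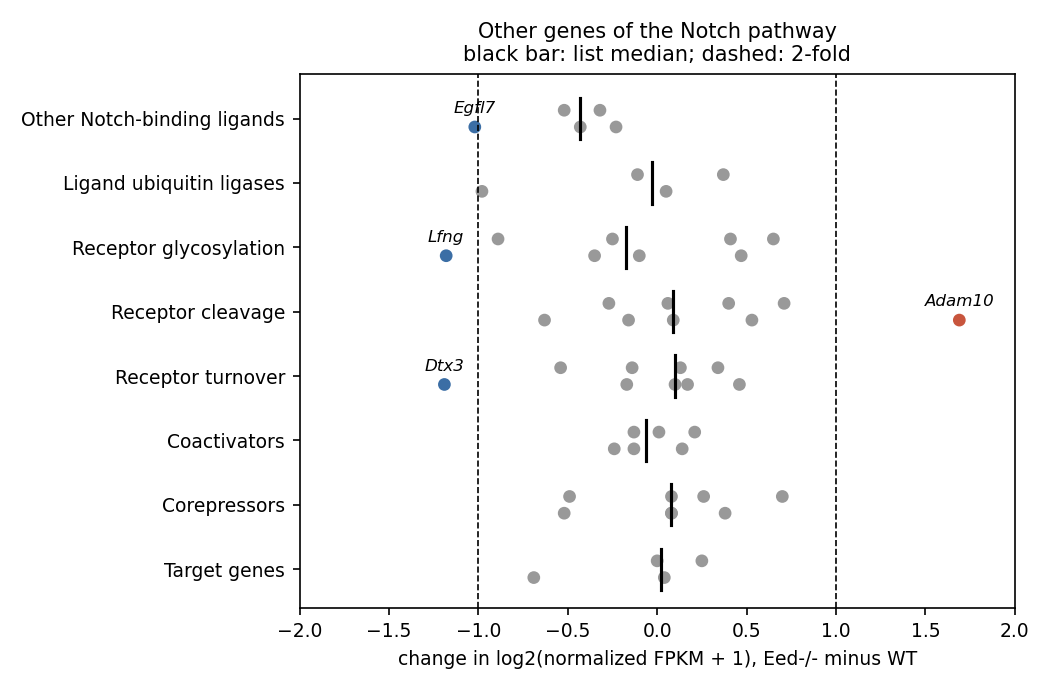
Change in log2(normalized FPKM + 1), the library labelled Eed-/- minus WT, of the 53 other pathway genes that passed the filter, 1 point per gene in 8 lists, with a black bar at each list's median and dashed lines at 2-fold. Adam10 at 1.69 is the one point beyond the right line, and Egfl7, Lfng and Dtx3 lie beyond the left one. All 5 points of the other Notch-binding ligands are below 0, though the ratio intervals of Dner and Mfap5 among them included 1.

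Receptor cleavage held the gene with the highest change. Adam10, the protease that makes the first cut in a Notch receptor bound to its ligand, had an FPKM of 2.42 in WT against 9.32 in the library labelled Eed-/-, a change of 1.69 and a ratio of 3.85 (2.98 to 5.03). Of the 10 genes of this list 9 passed and 8 were within 2-fold, with a median of 0.09.

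Other Notch-binding ligands and the enzymes that add sugars to Notch had medians below 0. All 5 non-canonical ligands that passed, of 6, had changes below 0, with a median of -0.43. Egfl7, a secreted protein that binds Notch, led them with an FPKM of 18.5 in WT against 7.7 in the library labelled Eed-/-, a change of -1.02, and Dlk2 was listed at 0 in both. All 8 glycosylation genes passed, with a median of -0.17. Lfng, the Lunatic fringe glycosyltransferase that alters which ligands a receptor answers to, had 3.09 in WT against 0.736 in the library labelled Eed-/-, a change of -1.18, and WT was 4.19 times as high (2.09 to 9.31). Poglut1, an O-glucosyltransferase of the EGF repeats and the most abundant of this list, stood at 36.8 and 17.1 with a change of -0.89. On the FPKM scale WT was 2.15 times as high for it (1.87 to 2.48).

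The ligases that ubiquitinate ligands all lay within 2-fold on the scale used for changes, with a median of -0.03. Neurl1a came closest, with 3.31 in WT against 1.11 in the other library, a change of -0.98. On the FPKM scale, without the 1 added, WT was 2.99 times as high for Neurl1a (1.94 to 4.73). Mib1, whose action on ligands is needed for them to signal, had 10.9 and 12.9 with a change of 0.37. In the turnover list all 9 genes passed, with a median of 0.10. Dtx3, a Deltex ubiquitin ligase, had 5.71 in WT against 1.76 in the library labelled Eed-/-, a change of -1.19, and WT was 3.25 times as high (1.98 to 5.56). Fbxw7, which marks the Notch intracellular domain for degradation, stood at 11.5 and 13.4 with a change of 0.34.

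The nuclear partners of Rbpj that passed the filter stayed within 2-fold on the scale used for changes. Of the 7 coactivators 6 passed, with a median of -0.06. Maml1, a Mastermind protein, had 3.66 in WT against 2.74 in the library labelled Eed-/- with a change of -0.24, Ep300, a histone acetyltransferase, 8.10 and 8.58 with 0.21, and Snw1, also a splicing factor, 70.7 and 61.0 with 0.01. Of the 9 corepressors 8 passed, with a median of 0.08. Cir1, at the low level of 0.391 and 1.23, had a change of 0.70 but a ratio of deposited FPKM of 3.14 (1.29 to 8.74). Ctbp2 and Ctbp1, the C-terminal binding proteins, stood at 59.5 and 35.9 and at 37.1 and 22.9, with changes of -0.52 and -0.49, and the deacetylase Hdac2 at 79.6 and 71.7 with 0.08.

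The Hes and Hey genes, which Notch activates, lay within 2-fold where they could be measured. Of 7 target genes 4 passed the filter, with a median of 0.02. Hes1 had an FPKM of 16.8 in WT against 15.6 in the library labelled Eed-/-, a ratio of 0.927 (0.729 to 1.18), and Hey1 stood at 1.5 and 1.45, a ratio of 0.968 (0.496 to 1.87). Hes5 and Heyl were listed at 0 in both libraries and Hes7 in the library labelled Eed-/-. Nrarp, a target that dampens the signal, had 1.27 and 0.388, a change of -0.69, and its ratio of 0.306 had an interval from 0.101 to 0.777, the only one of the 4 that left out 1. It lay outside the naming rule and was singled out after its values were seen. An RNA level of Hes1 does not measure Notch activity by itself, since other pathways also act on this gene.

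Markers of other cell types moved between the libraries as well. The 8 primitive endoderm markers all passed and all had changes above 0, with a summed FPKM of 15.5 in WT against 57.2 in the library labelled Eed-/-. Lama1 stood at 8.25 and 33.5 and Col4a1 at 5.62 and 19.1, both at least 2-fold higher. Lama1 and Col4a1 made up most of the difference between the sums. The rest of the list reached at most 1.35 (Gata4). Sox17 was listed at 0 in WT and at 0.449 in the library labelled Eed-/-. Dab2 was close to even, at 0.499 and 0.515. Its ratio interval (0.476 to 2.23) included 1, as did that of Gata6 (0.808 to 12.2), from about 4 and 10 fragments. Those of Gata4 (1.48 to 7.23), Sox7 (1.53 to 10.2) and Pdgfra (1.21 to 6.73) left out 1. The 7 fibroblast markers summed to 2.17 and 8.59. Of the 3 that passed the filter 1 was past 2-fold, Thy1 with 0.976 and 6.97, which made up most of the difference between the sums. Fbn1 was higher too, at 0.442 and 1.37, with a change of 0.73 and a ratio of 3.1 (2.12 to 4.63). Col1a1 stood at 0.46 and 0.137 and Col1a2 at 0.167 and 0.0312, lower in the second library. Those values rested on about 19 and 5 fragments for Col1a1 and 6 and 1 for Col1a2, which did not pass the filter. Lum was listed at 0 in WT and Col3a1 and Postn in the library labelled Eed-/-. The 7 neural progenitor markers summed to 17.2 and 24.1, with 4 that passed, none past 2-fold, and Neurog2 and Fabp7 at 0 in both. The part of these cell types in the levels of Notch4, Jag1, Jag2 and Rbpj was not tested.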

How the data were processed

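RNA-seq of 2 libraries was used, 1 per genotype, and the ChIP-seq, bisulfite and 4C-seq samples were not analysed here. Per the labels, ribosomal RNA was depleted and the strand was kept by removing dUTP-marked cDNA. The authors mapped reads to mm9 and deposited FPKM per gene symbol without read counts; the submitters' processing notes name TopHat2 2.0.11, Bowtie2 2.2.2 and Cufflinks 2.2.1. The annotation and the strand setting of the counting are not given in the sources used here.

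Repeated symbols were summed, quantile normalization was applied, and 1 was added before log2. A gene was kept where its mean normalized FPKM reached 0.1. No test was made, since each genotype has 1 library. Fragments were recovered from steps of low values in 5103 genes with 1 transcript, where 78.9% of 864 low values in WT and 79.7% of 964 in the library labelled Eed-/- lay within 0.1 of a whole number, with 180 bases taken off each length. For genes with several transcripts the fragment number is an approximation, and exact Poisson and Clopper-Pearson intervals cover counting error only. Loci came from GENCODE vM1 on NCBIM37, promoters from RefSeq (all 10 genes matched), and copies from minimap2 2.31. The computations were tested on simulated data and used Python 3.11.15, numpy 2.4.6, pandas 2.3.3 and scipy 1.17.1.

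The genes and lists were chosen with earlier results of these data known. All 10 genes are named, as is Eed; of each pathway list, the genes past 2-fold, or otherwise the 2 with the largest change at a mean FPKM of at least 1, and the gene with the highest level. One gene that this rule selects is not reported here. Of marker lists, at most 3 genes are named where the sum differed 2-fold. The mESC, endothelial and mesoderm markers, markers listed at 0 and any beyond the first 3 of a list were named after their values were seen. So were pathway genes outside the rule. Alternatives were unnormalized FPKM, scaling by the median ratio (genes reaching a mean of 2), smaller pseudocounts (0.1 and 0.01), no filter or a minimum mean of 1, repeated symbols left out, and thresholds of 1.5-fold and 3-fold.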

Additional observations from a re-analysis of the deposited data

How the results depend on the processing

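Over the alternatives, the changes of the 9 genes kept their sign. At pseudocounts of 0.1 and 0.01, Notch4 went to 2.09 and 2.2, and Dll3 to -1.62 and -1.75, past 2-fold. The size of each shift from the main setting was set against the distance from the middle to the edge of the gene's ratio interval in log2. Both shifts of Notch4 were larger than that distance. All other shifts, those of Dll3 included, were not. This compares the sizes of shifts and does not say whether a value lies inside its interval. The ranges were 1.36 to 2.2 for Notch4, 1.03 to 1.28 for Rbpj, -1.99 to -1.57 for Jag2, -1.75 to -0.90 for Dll3 and 0.50 to 0.76 for Jag1. At pseudocounts of 0.1 and 0.01 and a 1.5-fold threshold, 2, 2 and 2 of the genes were lower, and at 3-fold 0 were higher, in the library labelled Eed-/-. All genes higher numbered 1694, 1914, 1819 and 152 at pseudocounts of 0.1 and 0.01 and thresholds of 1.5-fold and 3-fold, and all genes lower 1778, 1989, 1841 and 137. Of the other pathway genes, 4, 4 and 4 were higher at the first 3 of these settings. Lower were 8, 8, 7 and 0 at the 4 settings and 5 with the FPKM as deposited. Smaller pseudocounts and thresholds let more genes pass by construction. No paired analysis was possible because each genotype has 1 RNA-seq library. Depth limits Dll1 and Dll4, which rest on at most 14 fragments per library, and no value here covers the spread between cultures or clones.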

Other observations

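Several pathway genes outside the naming rule had ratios whose counting interval left out 1; they were singled out after their values were seen, among 60 genes. Cir1, a corepressor that binds RBPJ, had an FPKM of 0.391 in WT against 1.23 in the library labelled Eed-/-, a ratio of 3.14 (1.29 to 8.74), and Aph1a, a subunit of gamma-secretase, 1.3 and 2.62, a ratio of 2.02 (1.21 to 3.44). Gxylt1, a xylosyltransferase that acts on Notch, had 3.82 and 5.95, a ratio of 1.56 (1.28 to 1.90). Other such genes were lower in the library labelled Eed-/-. Dtx3l had 5.52 and 3.15, a ratio of 0.571 (0.446 to 0.726). Kat2a had 41.8 and 33.6, a ratio of 0.803 (0.723 to 0.891), and Dlk1 0.456 and 0.08, a ratio of 0.175 (0.0195 to 0.754). These genes are examples from both directions, and the share of all genes with such intervals was not counted.

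The gamma-secretase subunit Ncstn had an FPKM of 12.9 in WT against 7.13 in the library labelled Eed-/-, a change of -0.63, and Psen2 2.81 and 4.18, a change of 0.53. Both lie on chromosome 1, where 4 of the pathway genes lie and where the median change over 758 genes was -0.29. On the other chromosomes that hold pathway genes or the 10 genes of the set, the medians ran from -0.03 to 0.11, and none of the 10 lies on chromosome 1.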
